A study of Mus musculus with 2 samples.

Results

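The transcripts of 10 genes of prostaglandin synthesis, breakdown and reception were followed in serum-starved mouse embryonic fibroblasts (MEFs), the connective tissue cells that grow out of dissociated mouse embryos. The genes were taken by name (Ptgs1, Ptgs2, Ptges, Ptges2, Ptgis, Ptgds, Hpgd, Pla2g4a, Ptger4 and Ptgfr), and every probe set that the platform annotation assigns to exactly 1 of them was used. That gave 19 of 45101 probe sets, for 9 of 18193 named genes; Ptgs1 had none here and was not analysed. A probe set is the group of short probes on an Affymetrix array that reads 1 transcript. Both genotypes, MEFs carrying the p27delta51 allele and wild type MEFs, were grown in DMEM with 10% fetal bovine serum and then held for 72 h without serum. Each was read on 1 array. The p27delta51 allele of Cdkn1b is known for a p27 protein without its amino-terminal, kinase-inhibiting segment; strain, number of embryos and passage were not stated in the labels. The question was how transcript levels in starved p27delta51 cells compare with those in starved wild type cells. A single array per genotype allows no test and no SD, and every difference below describes these 2 arrays.

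Prostaglandins are short-lived lipid signals made from arachidonic acid. A phospholipase cuts the fatty acid from membranes, a cyclooxygenase turns it into a common intermediate, and terminal synthases convert that intermediate into prostaglandin E, D or F or into prostacyclin. These act on G-protein-coupled receptors of nearby cells before a dehydrogenase inactivates them. Fibroblasts are a well-known source of prostaglandin E and prostacyclin, and the inducible cyclooxygenase gene Ptgs2 is a classical early response to serum and cytokines.

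Of the 9 genes measured, 4 were at least 2-fold lower in p27delta51: Ptgs2, the inducible cyclooxygenase gene; Ptges, the gene of the inducible microsomal prostaglandin E synthase; Ptgis, the prostacyclin synthase gene; and Ptger4, the gene of a prostaglandin E receptor that raises cAMP. None was at least 2-fold higher. By that limit, 8.77% of the 11159 genes with a mean signal of 22.2 or more were lower and 10.8% were higher. Of the 9, 7 reached this mean, the 4 lower ones included, and Hpgd and Ptgfr did not. Ptgis and Ptger4 reached this mean only through their wild type signal, which required them to differ. The cytosolic phospholipase A2 gene Pla2g4a and Ptges2, the other prostaglandin E synthase gene among the 9, had nearly equal signals on both arrays. Hpgd and Ptgfr were close to background, and the 2 probe sets of Ptgds went opposite ways. Background was taken from 27 probe sets for bacterial transcripts: the brightest of them, called the floor here, was 11.8 in wild type and 14.8 in p27delta51. Where the dimmer of 2 signals did not exceed its floor, the fold was computed from the floor and is written as "at least". In wild type, 16 of the 19 probe sets and all 9 genes were above the floor, and in p27delta51, 6 of the 19 probe sets and 5 genes were. Each array was counted against its own floor. Between the 2 floors lay wild type signals of Hpgd (13.3), Ptger4 (13.1) and Ptgfr (13.8 and 14.5). Between them also lay p27delta51 signals of Ptger4 (13.3) and Ptgfr (12.5 and 12.3). Over all probe sets the shares above the floor were 62.6% in wild type and 58.6% in p27delta51.

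The region around the start site is shown for Ptgs2, Ptges and Ptger4, which were all lower in p27delta51 and have an entry in the promoter table used; Ptgis is named only. Each run holds 250 bases before to 50 after the start of the gene, 5′ to 3′ along the gene's own strand, from RefSeq on GRCm38.p6. They lie at chr1:150099781-150100080 on the plus strand for Ptgs2, chr2:30903248-30903547 on the minus strand for Ptges and chr15:5244138-5244437 on the minus strand for Ptger4. Capitals mark every match, on either strand, to the TATA box TATAAA, the CCAAT box CCAAT, the GC box GGGCGG, the E-box CACGTG, the cAMP-response core TGACG, the C/EBP palindrome TTGCGCAA and the NF-kB consensus.
Ptgs2: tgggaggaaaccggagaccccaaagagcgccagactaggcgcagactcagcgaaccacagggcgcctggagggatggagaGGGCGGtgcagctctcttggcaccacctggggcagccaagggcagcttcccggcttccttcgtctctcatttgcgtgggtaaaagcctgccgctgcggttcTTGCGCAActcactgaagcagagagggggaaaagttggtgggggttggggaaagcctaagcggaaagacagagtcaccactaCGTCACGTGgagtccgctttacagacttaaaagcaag
Ptges: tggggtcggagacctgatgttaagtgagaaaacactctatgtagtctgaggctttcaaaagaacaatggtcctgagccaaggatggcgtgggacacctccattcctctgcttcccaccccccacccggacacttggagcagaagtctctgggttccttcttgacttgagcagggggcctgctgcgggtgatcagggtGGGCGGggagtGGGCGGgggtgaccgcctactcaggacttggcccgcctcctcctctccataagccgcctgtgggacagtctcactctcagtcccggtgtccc
Ptger4: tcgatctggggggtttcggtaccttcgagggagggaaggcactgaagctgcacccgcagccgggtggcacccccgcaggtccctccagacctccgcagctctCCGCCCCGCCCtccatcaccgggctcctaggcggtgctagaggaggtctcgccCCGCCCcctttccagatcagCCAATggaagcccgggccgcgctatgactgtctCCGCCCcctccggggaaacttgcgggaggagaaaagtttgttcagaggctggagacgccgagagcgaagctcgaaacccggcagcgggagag
The Ptgs2 run held 1 GC box, 1 C/EBP palindrome and, near its end, a cAMP-response core that overlaps an E-box. The Ptges run held 2 GC boxes, and the Ptger4 run 4 GC boxes and 1 CCAAT box. Of 32851 promoters of the same length, 35.7% held the GC box, 37.4% the CCAAT box, 20.8% the cAMP-response core, 7.15% the E-box and 0.183% the C/EBP palindrome. The GC box was the motif found in all 3 runs, and it was also in the promoters of Hpgd and Ptgfr, which were near background. The NF-kB consensus, in 4.51% of all promoters, and the TATA box, in 13.6%, matched none of the 3 runs. A match describes letters and says nothing about which factors were bound in the cells.

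Arachidonate release was represented by Pla2g4a, whose product frees arachidonic acid from phospholipids. Its single probe set gave signals of 950 in wild type and 988 in p27delta51, with a log2 difference (p27delta51 minus wild type, as throughout) of 0.06. Pla2g4a is the nearest protein-coding neighbour of Ptgs2 on one side on chromosome 1, with 0 protein-coding genes between them in the GRCm38.p6 gene table. The phospholipase signal was level, while the signal of the adjacent cyclooxygenase gene was not.

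Ptgs2 was read by 2 probe sets that gave close folds. The brighter gave 521 in wild type and 176.5 in p27delta51, 2.95-fold lower. The dimmer gave 175 in wild type and 56.0 in p27delta51, 3.12-fold lower. All 4 of these signals were above the floors. Among the 11159 genes that passed the brightness filter (a mean signal of at least 22.2), 588 had a lower log2 difference than the -1.56 of Ptgs2. The differences of its 2 probe sets, -1.56 and -1.64, lay close together beside the median SD of 0.23 between bright probe sets of 1 gene, taken over 5316 genes. That spread is technical and stands in for no replicate. The authors' deposited table gave log2 ratios of -1.5 and -1.6, and a decrease call for both probe sets.

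The prostaglandin E synthase genes that were read were not alike. A further such gene, Ptges3, was not measured. For Ptges, all 3 probe sets were dimmer in p27delta51. The brightest gave 83.2 in wild type and 31.3 in p27delta51, 2.66-fold lower. A second gave 35.3 in wild type and 1.1 in p27delta51, at least 2.39-fold lower, and the third 30.3 and 4.9, at least 2.05-fold lower, both with the p27delta51 signal under the floor. In the authors' deposited table the 3 ratios were -1.3, -5.0 and -2.6, with a decrease, a marginal decrease and a no-change call. With 32 added to each signal before the log2, the difference of the brightest probe set was -0.86, short of 2-fold. Ptges2, whose product is a constitutive membrane-associated prostaglandin E synthase, gave 81.8 in wild type and 75.4 in p27delta51, with a log2 difference of -0.12.

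Ptgis had the largest difference of the 9 genes. Its product is a cytochrome P450 enzyme that makes prostacyclin, which widens vessels and inhibits platelet aggregation. The single probe set gave 1514 in wild type and 2.6 in p27delta51, at least 102-fold lower. The signal was at background on the p27delta51 array and far above it on the other, and the gene had no second probe set to set beside it. The authors' deposited table gave a log2 ratio of -9.1 and a decrease call.

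**Figure D1:**
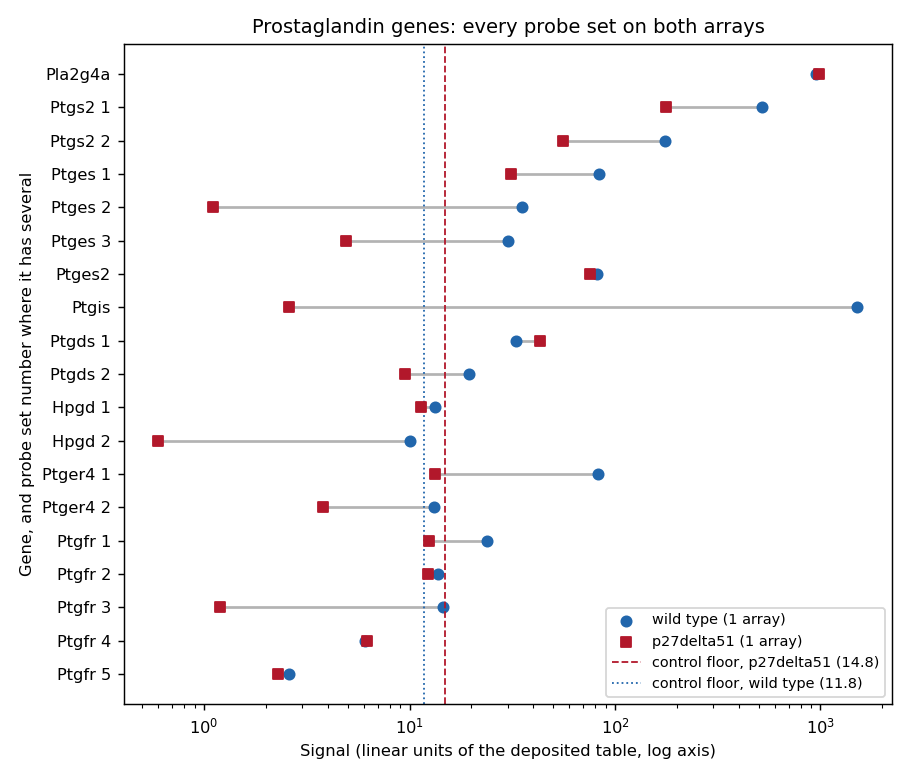
Signal of each of the 19 probe sets on the p27delta51 array (squares) and the wild type array (circles), on a log axis, with the control floors of 14.8 and 11.8 as vertical lines. The longest grey line joins 2.6 and 1514 for Ptgis, the pair for Pla2g4a nearly coincides at 988 and 950, and the rows for Hpgd and most of Ptgfr sit around or under the floors.

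Ptgds, which encodes the lipocalin-type prostaglandin D synthase, was read at low signal, and its 2 probe sets went opposite ways. The brighter, above the floor on both arrays, gave 33.0 in wild type and 43.0 in p27delta51, with a log2 difference of 0.38. The dimmer gave 19.4 in wild type and 9.5 in p27delta51, at least 1.31-fold lower. Both carried a no-change call in the authors' deposited table, and no direction is given for this gene.

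Hpgd encodes hydroxyprostaglandin dehydrogenase, the main prostaglandin-inactivating enzyme. Its 2 probe sets gave 13.3 and 10.1 in wild type and 11.4 and 0.6 in p27delta51. The signal of 13.3 was just above its floor and the other 3 were under theirs, so no fold is given.

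The receptor genes differed in how well they could be read. For Ptger4, the signals of the brighter probe set were 83.0 in wild type and 13.3 in p27delta51, at least 5.61-fold lower, with a log2 ratio of -3.4 and a decrease call in the authors' deposited table. The other gave 13.1 in wild type, barely above the floor, and 3.8 in p27delta51, under it, and carried a no-change call there. Ptgfr, which encodes the receptor for prostaglandin F, was read by 5 probe sets whose signals ranged from 2.6 to 23.9 in wild type and from 1.2 to 12.5 in p27delta51. All 5 were under the floor in p27delta51 and 3 were above it in wild type. The brightest of them, 23.9 in wild type and 12.5 in p27delta51, was at least 1.61-fold lower, and all 5 carried a no-change call in the authors' deposited table.

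The members were then set beside all genes, each gene represented by its brightest probe set. Of the 9, 7 passed the filter; Ptgis and Ptger4 did so only through their wild type signal, so that the filter itself required them to differ, and Hpgd and Ptgfr did not pass. The counts and the median that follow therefore describe these genes and are no support for a direction of the group. Of the 7, 4 (57.1%) were at least 2-fold lower, where 8.77% of all 11159 genes were, and 0 were at least 2-fold higher, where 10.8% were. With the limit of 22.2 applied to both arrays, a setting added after the data were seen, Ptgis and Ptger4 drop out and 2 of 5 members, Ptgs2 and Ptges, were at least 2-fold lower and 0 higher. Of 10210 genes left under that setting, 5.95% were lower and 8.73% higher. At a 3-fold limit the 2 lower members were Ptgis and Ptger4, which passed the filter only through their wild type signal, and 0 were higher. The shares of all genes were 5.21% and 4.78%. At a 1.5-fold limit 4 were lower and 0 higher, against 15.9% and 21.7%. The median log2 difference was -1.41 over the 7 members, also with bounds in place of signals under the floor, and -0.12 over the 5, where that of all 11159 genes was 0.08, with quartiles at -0.33 and 0.51. By the authors' own calls, 5 of the 19 probe sets were decreased and 1 marginally decreased, in the same 4 genes, where 10.3% of all probe sets had either call. None of the 19 was increased or marginally increased, where 12.9% of all probe sets were.

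**Figure D2:**
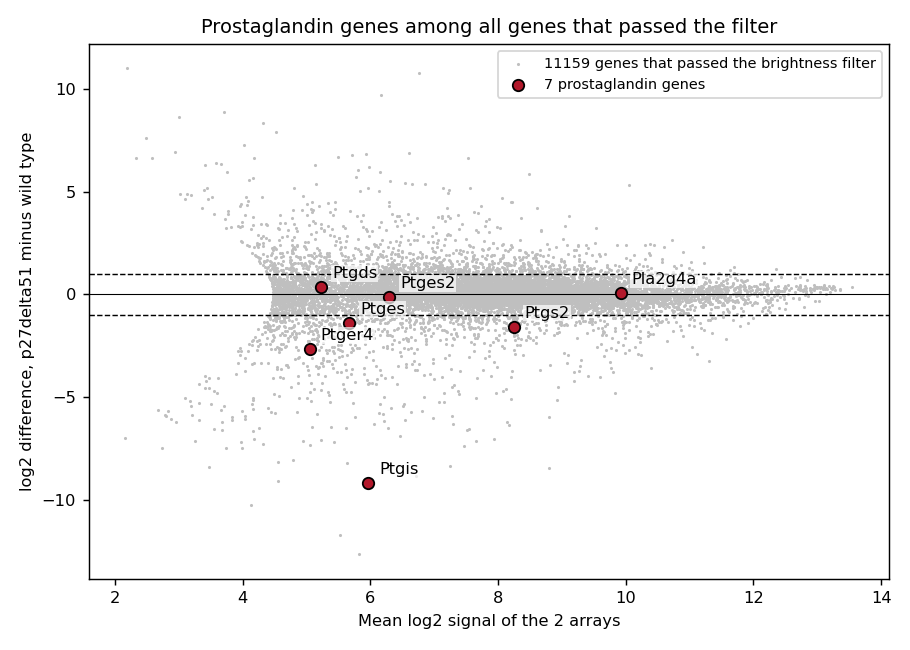
log2 difference (p27delta51 minus wild type) against the mean log2 signal of both arrays for 11159 genes (grey) and the 7 prostaglandin genes that passed the filter (red), with dashed lines at the 2-fold limits. Ptgs2, Ptges, Ptger4 and Ptgis lie below the lower line, at -1.56, -1.41, -2.64 and -9.19, and Ptges2, Pla2g4a and Ptgds lie between the lines. The points of Ptger4 and Ptgis use p27delta51 signals under the floor. Their folds are bounds, at least 5.61 and at least 102.

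The other genes of the prostanoid pathway were taken in 4 lists, of phospholipases and their regulators, synthases and reductases, receptors, and transport or reducing enzymes. Of 41 genes listed, 36 were measured and 19 passed the filter. Of these, 5 (26.3%) were at least 2-fold lower, 1 was at least 2-fold higher and 13 lay between, with a median log2 difference of -0.13. The shares over all genes were the 8.77% and 10.8% given above, and 1 of the 5, Pparg, passed the filter only through its wild type signal. Among synthases and reductases, Cbr1, whose product is a carbonyl reductase that can reduce prostaglandin E, gave 209 in wild type and 44.1 in p27delta51, 4.75-fold lower. Cbr3, a related reductase gene, gave 168 in wild type and 62.7 in p27delta51, 2.68-fold lower, and both carried a decrease call in the authors' deposited table. The other genes of that list that passed were close to level, although Prxl2b carried a decrease call in the authors' deposited table. In wild type and p27delta51 respectively, the signals were 1412 and 1564 for the carbonyl reductase gene Cbr2, 540 and 494 for the aldo-keto reductase gene Akr1b8, 27.5 and 25.5 for the thromboxane synthase gene Tbxas1, and 27.4 and 25.1 for Prxl2b, a prostaglandin F synthase gene. Hpgds, the hematopoietic prostaglandin D synthase gene, gave 16.7 and 17.5 and did not pass.

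Most of the other prostanoid receptor genes were under the floor on at least one array. Ptger1, Ptger2 and Ptger3, which encode the remaining prostaglandin E receptors, and the prostaglandin D receptor gene Ptgdr2 were under it on both arrays. Ptgdr, the other prostaglandin D receptor gene, gave 14.0 in wild type and 11.9 in p27delta51. Ptgir, the prostacyclin receptor gene, gave 2.2 in wild type and 22.4 in p27delta51, at least 1.90-fold higher, opposite in direction to Ptgis, with a no-change call in the authors' deposited table. The thromboxane receptor gene Tbxa2r gave 58.3 in wild type and 24.7 in p27delta51, 2.36-fold lower, and Pparg, a nuclear receptor that binds prostanoid-like lipids, gave 48.9 and 1.5, at least 3.30-fold lower. Both carried a no-change call in the authors' deposited table. Ppard, a related nuclear receptor gene, gave 134 in wild type and 267 in p27delta51, 1.98-fold higher. Ptgfrn, whose product inhibits the prostaglandin F receptor, gave 377 in wild type and 895 in p27delta51, 2.37-fold higher, and was the single 2-fold higher gene of the 4 lists among those that passed the filter.

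Among the phospholipase genes that passed the filter, Pla2g4c alone was past 2-fold, at 68.8 in wild type and 32.9 in p27delta51, 2.09-fold lower, although the authors' deposited table gave it a log2 ratio of 0.1 and a no-change call. Pla2g2e, a secreted phospholipase gene whose mean of 20.1 missed the filter, gave 3.0 in wild type and 37.2 in p27delta51, at least 3.15-fold higher, with a no-change call there. Anxa1, whose product annexin A1 is known to restrain phospholipase A2, gave 4105 in wild type and 7393 in p27delta51, with a log2 difference of 0.85. It carried an increase call in the authors' deposited table. Abcc4, Ptgr1 and Ptgr2, which export or reduce prostaglandins, all lay within 2-fold. In the authors' deposited table they carried a decrease, an increase and a no-change call respectively.

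A list of lipoxygenase and leukotriene genes, for the branch that uses the same arachidonic acid, had 4 genes that passed. Of these, 1 was at least 2-fold higher and 0 lower, too few to set against the shares over all genes. Alox5ap, whose product presents arachidonic acid to a lipoxygenase, gave 29.2 in wild type and 92.1 in p27delta51, 3.15-fold higher. The other 3 lay within 2-fold, with Lta4h, the leukotriene A hydrolase gene, at 813 in wild type and 1361 in p27delta51. Genes of cAMP signalling, which several prostanoid receptors use, had 2 of 16 (12.5%) past 2-fold in each direction, near the shares over all genes. Adcy7, an adenylyl cyclase gene, gave 42.6 in wild type and 266 in p27delta51, 6.24-fold higher, and Prkar2b, a regulatory subunit gene of protein kinase A, 348 and 697, 2.00-fold higher. Prkar1b, another regulatory subunit gene, gave 202 in wild type and 12.3 in p27delta51, at least 13.7-fold lower, having passed the filter only through wild type, and the cAMP phosphodiesterase gene Pde4b 134 and 39.2, 3.42-fold lower.

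**Figure D3:**
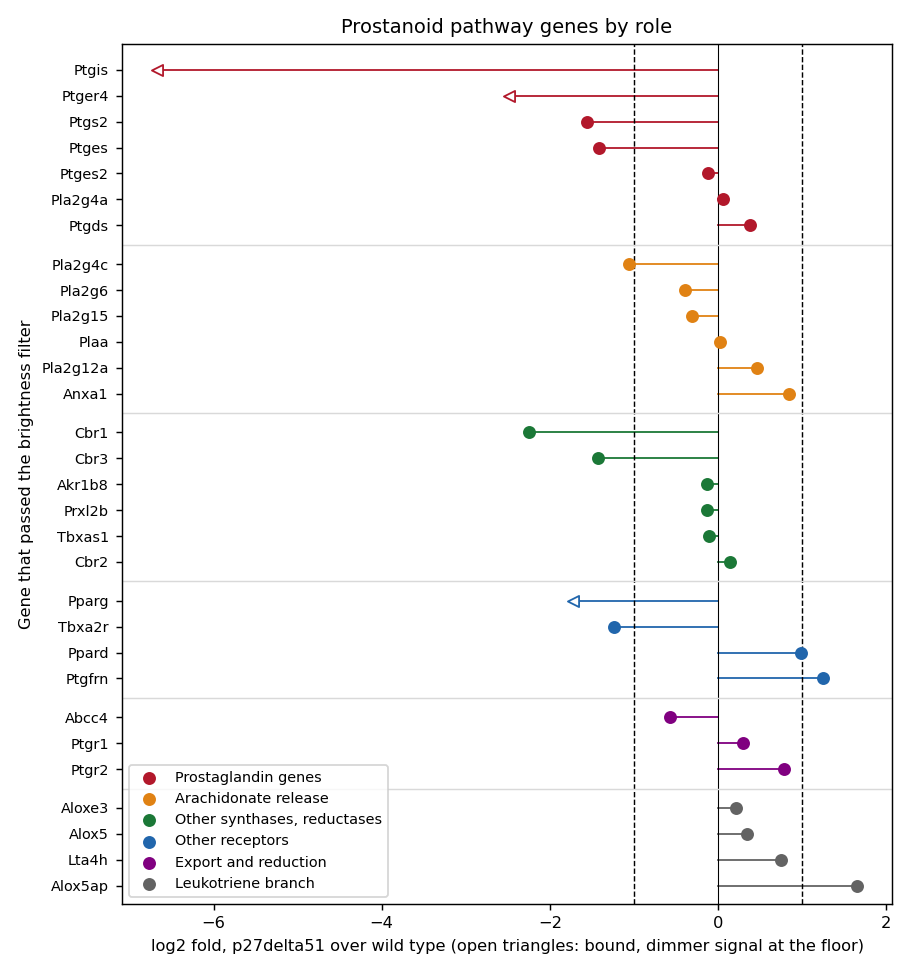
log2 fold of p27delta51 over wild type for the prostaglandin genes and for genes of 5 related lists that passed the filter, ordered by role, with dashed lines at the 2-fold limits and open triangles where the dimmer signal was at the floor, so that the fold is a bound. Ptgis reaches furthest to the left, at least 102-fold lower, and the 4 genes of the lipoxygenase and leukotriene list lie to the right of 0.

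The cultures also differed in cell type markers. Fibroblast genes were bright on both arrays, with Col1a1 at 7569 in wild type and 7275 in p27delta51 and Vim at 9670 and 11278, and 11 of 12 fibroblast markers passed the filter. Within that list 2 genes were at least 2-fold lower and 1 was higher. Thy1, a surface marker of a subset of fibroblasts, gave 279 in wild type and 18.6 in p27delta51, 15.0-fold lower. The collagen gene Col5a1 gave 3907.5 in wild type and 1662 in p27delta51, 2.35-fold lower. Pdgfra, a growth factor receptor gene, gave 138 and 529, 3.84-fold higher. Most markers of macrophages, mast cells and endothelium were near background, with none listed at 0. The macrophage markers Csf1r, at 65.0 in wild type and 56.5 in p27delta51, and Lyz2, at 30.4 and 19.7, passed the filter, as did the mast cell gene Tpsab1, at 31.1 and 15.0, 2.07-fold lower. Tpsab1 carried a no-change call in the authors' deposited table, and its p27delta51 signal was just above the floor of 14.8. In wild type the macrophage, mast cell and endothelial markers summed to 156, 112.5 and 75.7, with 5 of 9, 4 of 8 and 3 of 7 genes above the floor. In p27delta51 the sums were 143.5, 83.0 and 41.8, with 4 of 9, 3 of 8 and 1 of 7 genes above it. Epithelial markers summed to 281 in wild type and 139 in p27delta51, with 5 and 3 of 7 genes above the floor. Krt19 was at 177 and 13.7, the other 6 summed to 104 in wild type and 125 in p27delta51, and Epcam, at 26.4 and 60.7, was 2.30-fold higher. The authors' deposited table, however, gave Epcam a log2 ratio of 0.1 and a no-change call. Meningeal and neural markers summed to 2681 in wild type and 1237 in p27delta51, with 4 and 5 of 7 genes above the floor, Map2 at 1378 and 56.8 and Sox2 at 7.8 and 71.8. Thy1, Lyz2, Tpsab1 and Krt19 passed the filter only through their wild type signal, and Sox2 only through its p27delta51 signal. The filter itself thus required these markers to differ. Krt19 was under the floor in p27delta51, and Sox2 was under it in wild type. The sex-linked transcripts Xist, at 25.8 in wild type and 876 in p27delta51, and Eif2s3y, at 424.5 and 6.9, differed as well. So did the brightest probe sets of the sex-linked genes Kdm5d, at 213 in wild type and 1.2 in p27delta51, and Uty, at 142 and 3.1. The part of these differences in the prostaglandin results was not tested, and in bulk RNA fewer cells of a type and less RNA per cell cannot be told apart. Genotype and culture cannot be told apart either, and neither can genotype and the sex of the cells read from the sex-linked transcripts. The targeted gene, Cdkn1b, had 2 probe sets of opposite direction, with 542 in wild type and 1016 in p27delta51 for one and 62.0 and 1.6 for the other, and their place relative to the deleted segment was not established.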

How the data were processed

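The deposited value table of the authors holds 1 signal intensity per probe set and array, on a linear scale. Per the submitters' processing notes, RMA and affy were used, with no version or role given. The deposited intensity values are linear and have the same trimmed mean of 150.0 on both arrays (2% removed at each end); their program is not stated in the labels. A ratio table, per the file headers, holds the authors' log2 ratio of p27delta51 over wild type, their change call and a p-value of the change. Its ratio correlated with that of the value table at r = 0.943 across all probe sets, which are not replicates.

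Names came from the platform annotation, updated by gene identifier to GRCm38.p6: 34945 probe sets had 1 symbol (34741 matched), and 932 with several were left out. Signals were converted to log2, a signal of 0 being set to 0.1. Each gene was represented by its brightest probe set on average, and genes with a mean under 22.2, the median of all probe sets, were left out of counts. No test was run. The members and lists were chosen with earlier results of these data known. Named genes are all members, other pathway genes at least 2-fold apart, and the receptors and synthases that passed; Anxa1, Lta4h, Hpgds, Pla2g2e, the dim receptors and the markers shown were picked after their values were seen. The steps were tested on simulated data (Python 3.11.15, numpy 2.4.6, pandas 2.3.3, statsmodels 0.14.6 for loess). No sample column was unused. The number of arrays limits the precision.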

Additional observations from a re-analysis of the deposited data

How the results depend on the processing

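No paired analysis was possible because each genotype has 1 array. Over 13 alternative settings, 1 of them (the limit of 22.2 on both arrays) added after the data were seen, no member at least 2-fold apart changed direction, and no member became at least 2-fold higher. The count of 4 lower members was 2 under the upper-quartile filter (3 members left), 2 with the limit on both arrays (5 left), 2 at the 3-fold limit and 3 with log2(signal + 32). Their median of -1.41 was -0.94 with no filter, over 9 members, -0.12 with the limit on both arrays and -0.86 with log2(signal + 32). Filters that only change which genes are kept cannot move a gene's value, and another choice of probe set cannot move a gene with 1. Of 71 member values recomputed, 62, these fixed ones included, moved by less than the 0.23 spread between probe sets and 9 by more. Among those, Ptgis was -6.68 with signals raised to the floor and -5.48 with log2(signal + 32), Ptges was -0.86 with the latter and -3.01 as a mean over all its probe sets. Ptger4 was -1.34, -2.21 and -3.4 with log2(signal + 32), with that mean and by the authors' deposited log2 ratio, and Ptgds was -0.32 and 0.1 by the last 2. For the other pathway genes, the count of 5 lower was 0 with the upper-quartile filter, 3 with log2(signal + 32), 2 at 3-fold and 7 with no filter. It was 4 with the limit on both arrays, with the mean over all probe sets and by the authors' deposited log2 ratio. The count of 1 higher among these pathway genes was 5 with no filter, 4 at 1.5-fold and 0 at 3-fold. With the mean over all probe sets and the authors' ratio, the count changed because genes had other values. The other changed counts and medians follow from how these alternatives are built: other genes kept, another limit, or an offset that shrinks differences of dim genes. Signals near the control floors limit Ptges, Ptger4, Ptgds, Hpgd and Ptgfr.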
